A study of Mus musculus with 10 samples.

Results

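The 4 adult hemoglobin genes Hba-a1, Hba-a2, Hbb-bs and Hbb-bt, together with the erythroid genes Alas2 and Slc4a1, were followed library by library in the mouse RPE/choroid complex, that is the pigmented epithelium of the retina (RPE) and the adjoining choroid, a layer of blood vessels. The 6 genes were found in the deposited count table by their symbols, 1 entry per Ensembl gene, out of 55487 distinct genes. They were chosen as a measure of how much blood each dissected sample held. Every one of the 10 samples is labelled as iDTR, a line with a diphtheria toxin receptor that only Cre can switch on, and every mouse received diphtheria toxin by intraperitoneal injection. In the 5 ADQ samples the genotype adds Adiponectin-Cre, in which the adiponectin promoter, active in fat cells, drives the recombinase and so directs the toxin to those cells. For the 5 control samples the labels give iDTR and no Cre. Daily toxin over 7 weeks is stated for the mice with Cre, and neither the age of the mice nor the number of animals per sample is given. As nothing in the labels says that samples came from separate animals, all p-values cover these samples only. Those of the group tests set the difference between groups against the spread between samples, and that spread may be technical.

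Hemoglobin is a tetramer of alpha-type and beta-type globin chains, each holding a heme, and it fills red blood cells to carry oxygen. Mature mammalian red cells have lost their nucleus, but young red cells that have just entered the circulation, the reticulocytes, still carry globin messenger RNA. The choroid is among the most richly perfused tissues of the body, so blood that stays in its vessels adds globin RNA to a dissected RPE/choroid sample. Fewer red cells and less RNA per red cell cannot be told apart in such bulk samples.

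Total counts ran from 43.6 M (M, mega) to 64.1 M in ADQ and from 48.0 M to 51.0 M in control. Levels are given in CPM, counts per M counts of the library after TMM scaling, on which 3 counts, the limit that a count of 0 allows, correspond to 0.0464 to 0.0687 CPM. The test is edgeR's, and fold changes are ADQ over control. Markers of the retinal pigment epithelium summed to 30927 to 46621 CPM in ADQ and 37081 to 53234 CPM in control, which fits the labelled tissue. Some libraries stood apart in markers of neighbouring tissue. Markers of corneal and conjunctival epithelium summed to at most 2.05 CPM in ADQ and to between 2.41 and 2142 CPM in control, with the highest sum in control 3. Rod photoreceptor markers summed to 505.7 to 3720 CPM in ADQ, with the highest sum in ADQ 5, against 558 to 2052 CPM in control, with the highest sum in control 1. Adipoq, the adiponectin gene, was at 0.176 to 1.67 CPM in ADQ and at 0 to 7.93 CPM in control, and the library at 0 was control 5, in which that count allows up to 0.0624 CPM.

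Positions are those of GENCODE M21 on the GRCm38 build. Hba-a1 (ENSMUSG00000069919) and Hba-a2 (ENSMUSG00000069917) encode the adult alpha-globin chain and lie on the plus strand of chromosome 11, at chr11:32283511-32284465 and chr11:32296489-32297298. Hbb-bs (ENSMUSG00000052305) and Hbb-bt (ENSMUSG00000073940) encode the adult beta-globin chain and lie on the minus strand of chromosome 7, at chr7:103826534-103828096 and chr7:103812524-103813996. Alas2 (ENSMUSG00000025270), the erythroid form of the enzyme that starts heme synthesis, lies on the plus strand at chrX:150547375-150570638. Slc4a1 (ENSMUSG00000006574), which encodes the band 3 anion exchanger of the red cell membrane, lies on the minus strand at chr11:102348824-102366203.

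Near-identical copies limit how reads can be split between the paired globin genes. The longest open reading frames of Hba-a1 and Hba-a2 were both 429 bases long with 1 difference, and those of Hbb-bs and Hbb-bt were both 444 bases long, also with 1 difference. The following 60-base stretch of the coding sequence, bases 358 to 417 counted from the start codon in the GENCODE transcripts, holds the difference between the beta-globin genes, printed as a capital.
Hbb-bs: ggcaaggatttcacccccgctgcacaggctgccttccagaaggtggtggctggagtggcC
Hbb-bt: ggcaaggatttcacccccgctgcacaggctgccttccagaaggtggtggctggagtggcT
Over whole transcripts, 67.5% of the 50-base windows of Hba-a1 occurred in Hba-a2 and 86.9% of those of Hba-a2 occurred in Hba-a1. For the beta-globin genes the shares were 57.5% for Hbb-bs and 58.3% for Hbb-bt. How reads that fit both copies were counted is not given in the sources used here, so the value of each single globin gene is uncertain and the summed alpha-globin and beta-globin counts are given as well.

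The promoters of the members that moved together between libraries are shown next, as the 250 bases before the RefSeq transcript start on GRCm38.p6, in the direction of transcription. Capitals mark the letters AGATAA, in which the first base may also be T and the last base may also be G, known to be bound by the erythroid factor GATA1, and the letters CACCC, which the erythroid factor KLF1 is known to bind, on either strand. The Hba-a1 window lies at chr11:32283422-32283671 on the plus strand. The Hbb-bs window at chr7:103827929-103828178 and the Hbb-bt window at chr7:103813924-103814173 lie on the minus strand. The Alas2 window lies at chrX:150547167-150547416 on the plus strand. The RefSeq starts lie downstream of the GENCODE gene starts given above, so the end of each window falls inside the stated gene span.
Hba-a1: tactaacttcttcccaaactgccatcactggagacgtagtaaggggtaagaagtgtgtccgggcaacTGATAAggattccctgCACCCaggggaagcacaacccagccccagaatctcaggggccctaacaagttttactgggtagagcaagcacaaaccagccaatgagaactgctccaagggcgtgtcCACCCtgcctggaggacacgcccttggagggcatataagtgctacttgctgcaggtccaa
Hbb-bs: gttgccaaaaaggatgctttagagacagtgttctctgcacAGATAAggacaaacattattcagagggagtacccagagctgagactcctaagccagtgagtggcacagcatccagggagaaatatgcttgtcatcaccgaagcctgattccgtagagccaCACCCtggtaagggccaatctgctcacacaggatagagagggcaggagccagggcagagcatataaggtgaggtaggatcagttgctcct
Hbb-bt: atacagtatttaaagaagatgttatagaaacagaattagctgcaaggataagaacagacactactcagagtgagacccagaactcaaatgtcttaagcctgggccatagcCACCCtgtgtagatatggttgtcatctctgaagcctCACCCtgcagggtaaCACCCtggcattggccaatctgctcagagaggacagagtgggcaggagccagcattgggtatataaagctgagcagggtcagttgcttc
Alas2: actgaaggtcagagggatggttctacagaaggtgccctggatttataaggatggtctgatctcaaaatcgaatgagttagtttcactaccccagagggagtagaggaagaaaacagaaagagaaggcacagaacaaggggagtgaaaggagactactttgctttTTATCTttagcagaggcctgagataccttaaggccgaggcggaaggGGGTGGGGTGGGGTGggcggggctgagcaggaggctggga
The Hba-a2 window was the same sequence moved by 3 bases, with 247 of 247 compared bases identical. No sequence is shown for Slc4a1.

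The 4 printed windows all held CACCC, which was in 52.0% of 32851 promoter windows of the same length. Hba-a1 had 2 copies, Hbb-bs had 1 copy at 90 to 86 bases before the start, and Hbb-bt had 3 copies. The copy of Hbb-bs lay within CCACACCC, which was in 3.2% of all windows. Alas2 had 3 copies on the opposite strand, read as GGGTG, between 40 and 26 bases before the start. The GATA letters were in 26.5% of all windows and occurred 1 time each in Hba-a1, at 183 to 178 bases before the start, in Hbb-bs, at 210 to 205 bases, and in Alas2, at 86 to 81 bases. They did not occur in the Hbb-bt window. Both motifs together were in 11.8% of all windows. The TATAA letters lay 27 to 23 bases before the start of Hba-a1, 29 to 25 bases before that of Hbb-bs and 28 to 24 bases before that of Hbb-bt, and were in 22.8% of all windows.

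The first comparison asked whether the adult hemoglobin genes differed between ADQ and control RPE/choroid. They had similar arithmetic means in the groups, and none of the 4 passed the test. The control libraries spread over a range of 27.0- to 31.8-fold, and the ADQ libraries lay close together, for the most part between the controls. Among the alpha-globin genes, Hba-a1 had 216, 346, 239, 282 and 352 CPM in ADQ 1 to 5, against 46.8, 23.5, 179.6, 464 and 634 CPM in control 1 to 5. The 5 ADQ libraries all lay above control 1, 2 and 3 and below control 4 and 5, so the groups overlapped. The mean level of Hba-a1 was 287 ± 61.4 CPM in ADQ and 269.6 ± 269 CPM in control (SD, n = 5 each), a log2 fold change of 0.09 with a standard error (SE) of 0.81 (edgeR quasi-likelihood test with Benjamini-Hochberg adjustment, adjusted p = 0.970). Hba-a2 had 141, 239, 180.0, 204 and 236 CPM in ADQ 1 to 5, against 28.8, 15.6, 108, 289 and 446 CPM in control 1 to 5. Its libraries stood in the same arrangement, with the ADQ libraries between control 3 and control 4. The log2 fold change of Hba-a2 was 0.17 (SE 0.83, edgeR adjusted p = 0.944).

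Of the beta-globin genes, Hbb-bs had the highest level per length of the 6 genes, with 497 ± 126 CPM per kilobase of exon in ADQ and 455 ± 453 in control (SD, n = 5 each). Its level was 279, 465, 296, 375 and 493 CPM in ADQ 1 to 5, against 61.5, 28.3, 231, 614 and 812 CPM in control 1 to 5. Control 5 was the highest and control 2 the lowest of the 10 libraries, and no ADQ library lay outside the range from control 3 to control 4. Hbb-bs had a log2 fold change of 0.13 (SE 0.82, edgeR adjusted p = 0.959). Hbb-bt had 69.8, 119, 90.2, 110.2 and 138 CPM in ADQ 1 to 5, against 15.1, 6.69, 52.8, 133 and 213 CPM in control 1 to 5. ADQ 5 was just above control 4 for this gene, and otherwise the order was that of Hbb-bs. The log2 fold change of Hbb-bt was 0.33 (SE 0.83, edgeR adjusted p = 0.884).

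Alas2 showed the same picture at a lower level. It had 8.05, 15.02, 13.9, 15.8 and 22.7 CPM in ADQ 1 to 5, against 3.78, 2.05, 10.9, 19.5 and 30.3 CPM in control 1 to 5. The highest and the lowest libraries were again control 5 and control 2, with ADQ 5 above control 4 and ADQ 1 below control 3. Mean Alas2 levels were 15.1 ± 5.21 CPM in ADQ and 13.3 ± 11.7 CPM in control (SD, n = 5 each), with a log2 fold change of 0.18 (SE 0.67, edgeR adjusted p = 0.924). On the opposite strand the exons of Apex2, a DNA repair nuclease, cover 311 of the 2403 exon bases of Alas2, or 12.9%. Apex2 itself had 246 to 421 counts per library. Whether counting used strand is not given, so reads from this stretch cannot be told apart.

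Slc4a1 was the lowest of the 6 genes, with 14, 28, 33, 25 and 61 counts in ADQ 1 to 5, against 2, 33, 17, 17 and 27 counts in control 1 to 5. In CPM these were 0.303, 0.548, 0.629, 0.549 and 0.944 in ADQ and 0.0458, 0.651, 0.332, 0.367 and 0.561 in control. Its order differed from that of the globin genes: ADQ 5 was the highest library, control 2, the lowest for the other 5 genes, came next, and control 1 was the lowest, below the floor of 3 counts. The groups overlapped. Mean Slc4a1 levels were 0.595 ± 0.231 CPM in ADQ and 0.391 ± 0.234 CPM in control (SD, n = 5 each), with a log2 fold change of 0.60 (SE 0.50, edgeR adjusted p = 0.600). Per kilobase of exon, Slc4a1 stood at 0.122 ± 0.0471 CPM in ADQ and 0.0800 ± 0.0479 in control, against 6.27 ± 2.17 in ADQ and 5.54 ± 4.88 in control for Alas2. Hba-a1 stood at 353 ± 75.6 CPM per kilobase in ADQ and 332 ± 331 in control (SD, n = 5 each). In both groups the order of the means per kilobase ran Hbb-bs, Hba-a1, Hba-a2, Hbb-bt, Alas2 and Slc4a1. Across the ADQ libraries the ranges per kilobase of Hbb-bs and Hba-a1, and of Hba-a1 and Hba-a2, overlapped, and those of later neighbours in that order did not. Across the control libraries the ranges of all neighbours overlapped except those of Alas2 and Slc4a1. All 6 genes were measured in the same libraries, so such overlap does not bear on their order within a library.

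**Figure D1:**
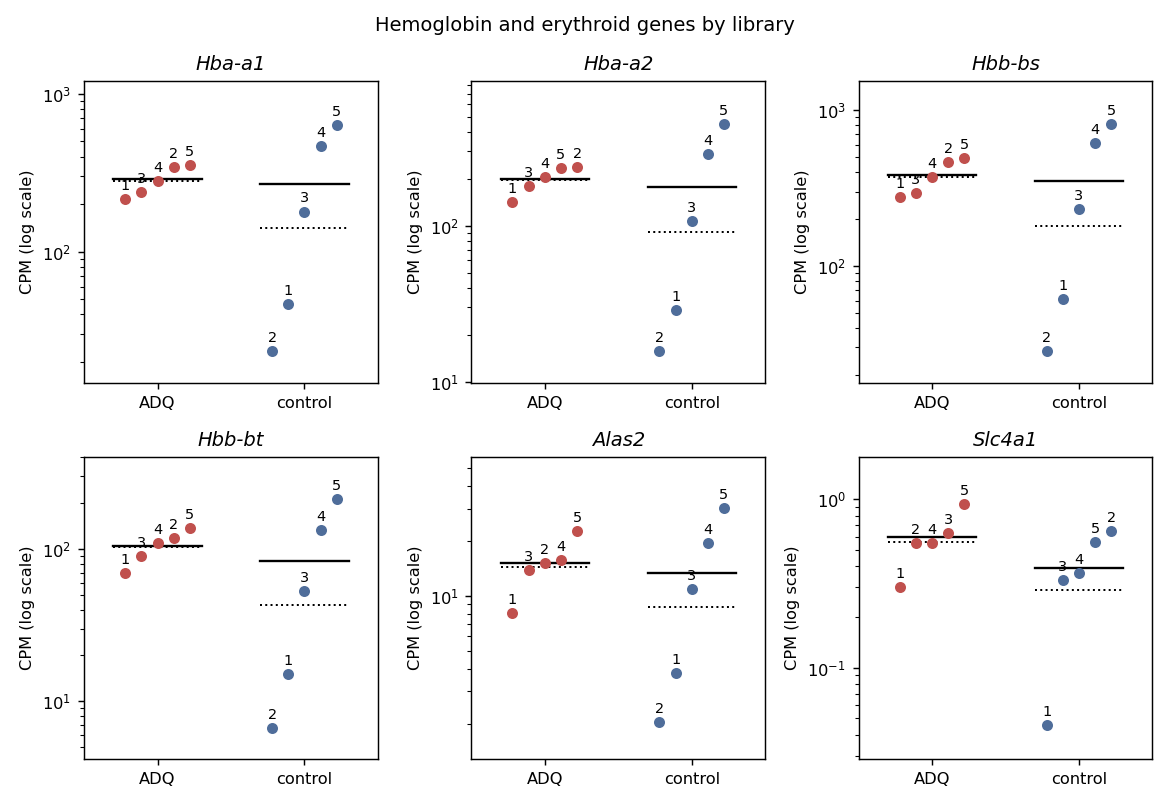
Level of each gene in CPM on a log axis, with 1 point per library labelled by its replicate number, ADQ left of control; solid lines are arithmetic means and dotted lines geometric means. For Hbb-bs the ADQ libraries lie between 279 and 493 CPM, inside the control range of 28.3 to 812 CPM.

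None of the 6 genes was called in either direction, and none had an unadjusted p under 0.05 in edgeR. Over all 20684 genes tested, edgeR called 171 genes, or 0.827%, with 0.74% higher and 0.087% lower in ADQ, and 7.96% were higher at an unadjusted p under 0.05. The median log2 fold change was 0.18 over the 6 genes, which were all above 0, and 0.01 over all genes tested, of which 51.8% were above 0. DESeq2 called none of the 6 genes either, and neither did voom with quality weights.

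The size of the difference depended on how the control libraries were averaged. The ratio of arithmetic means, ADQ over control, was 1.06 for Hba-a1, 1.13 for Hba-a2, 1.09 for Hbb-bs and 1.25 for Hbb-bt. The ratio of geometric means was 1.98 for Hba-a1, 2.16 for Hba-a2, 2.04 for Hbb-bs and 2.37 for Hbb-bt. For Alas2 the arithmetic ratio was 1.13 and the geometric ratio 1.64, and for Slc4a1 they were 1.52 and 1.93. The medians of Hbb-bs were 375 CPM in ADQ and 231 CPM in control. The authors' deposited table, which holds log2 fold changes of its own, gave 1.47 for Hba-a1, 1.61 for Hba-a2, 1.54 for Hbb-bs, 1.80 for Hbb-bt and 1.21 for Alas2. In the authors' deposited table the interval of Hbb-bt ran from 0.12 to 3.48, with an unadjusted p of 0.0375 and an adjusted p of 0.157. The other 4 intervals in the authors' deposited table included 0, with adjusted p-values of 0.192 for Alas2 to 0.256 for Hba-a1, where that table called 5.42% of its 15860 genes, 3.79% higher and 1.63% lower in ADQ. Slc4a1 is not in it. With voom and quality weights, which give libraries unequal weight, the log2 fold change was 1.40 for Hbb-bs (adjusted p = 0.444) and 1.66 for Hbb-bt (adjusted p = 0.338).

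**Figure D2:**
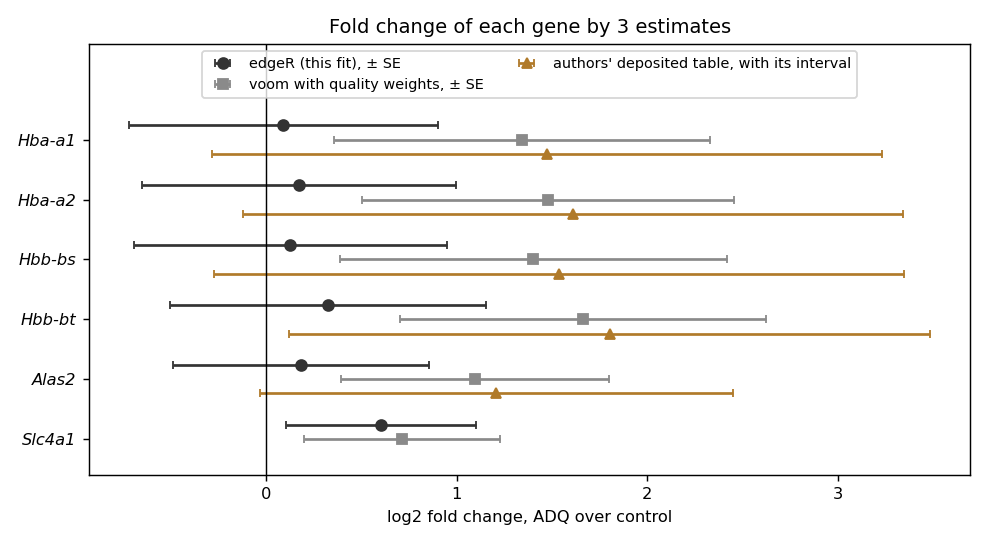
Log2 fold change, ADQ over control, of each gene by edgeR and by voom with quality weights (bars are ± SE) and in the authors' deposited table (bars are the interval given there). The edgeR values lie between 0.09 and 0.60, and the authors' values, which leave out Slc4a1, between 1.21 and 1.80.

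Single control libraries also moved the edgeR estimates. Without control 5, the library with the most hemoglobin and no Adipoq count, the log2 fold change was 0.68 for Hba-a1, 0.86 for Hba-a2, 0.71 for Hbb-bs, 1.02 for Hbb-bt and 0.74 for Alas2. Without control 2, the library with the least hemoglobin, it was -0.21 for Hba-a1, -0.12 for Hba-a2, -0.17 for Hbb-bs, 0.03 for Hbb-bt and -0.09 for Alas2. Slc4a1 ran from 0.33 without control 1 to 0.86 without control 2. No member passed the test in any of these fits, and the edgeR adjusted p-values ran from 0.417 to 0.998 over the 10 fits that each left out 1 library.

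The next question was how far the hemoglobin content varied from library to library. The 4 hemoglobin genes together took 0.0664%, 0.120%, 0.0910%, 0.101% and 0.123% of all counts in ADQ 1 to 5. In control 1 to 5 they took 0.0138%, 0.00736%, 0.0586%, 0.144% and 0.204%. Control 1 and 2 were the lowest, control 4 and 5 the highest, and the ADQ libraries lay between control 3 and control 4. Exact Clopper-Pearson intervals at 95% were narrow, for example 0.00713% to 0.00760% in control 2 and 0.203% to 0.205% in control 5, and they cover counting error only. The mean share was 0.100% ± 0.0231 in ADQ and 0.0855% ± 0.0858 in control (SD, n = 5 each). The highest share was 1.85 times the lowest in ADQ and 27.7 times the lowest in control.

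The members were among the most variable genes between control libraries. The SD of log2 CPM of Hbb-bs was 0.37 in ADQ and 2.09 in control. Over the 15925 genes that averaged 1 CPM or more, to which Slc4a1 does not belong, the median SD was 0.22 in ADQ and 0.21 in control. In control the 4 hemoglobin genes and Alas2 stood at percentiles 99.1 to 99.5 of that distribution, and in ADQ at percentiles 73.2 to 92.3. Slc4a1 stood at 98.5 in control and 92.6 in ADQ. With 2 to 61 counts per library, its SD also holds counting error. Alas2 had an SD of 0.54 in ADQ and 1.61 in control, and Slc4a1 had 0.54 in ADQ and 1.20 in control.

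**Figure D3:**
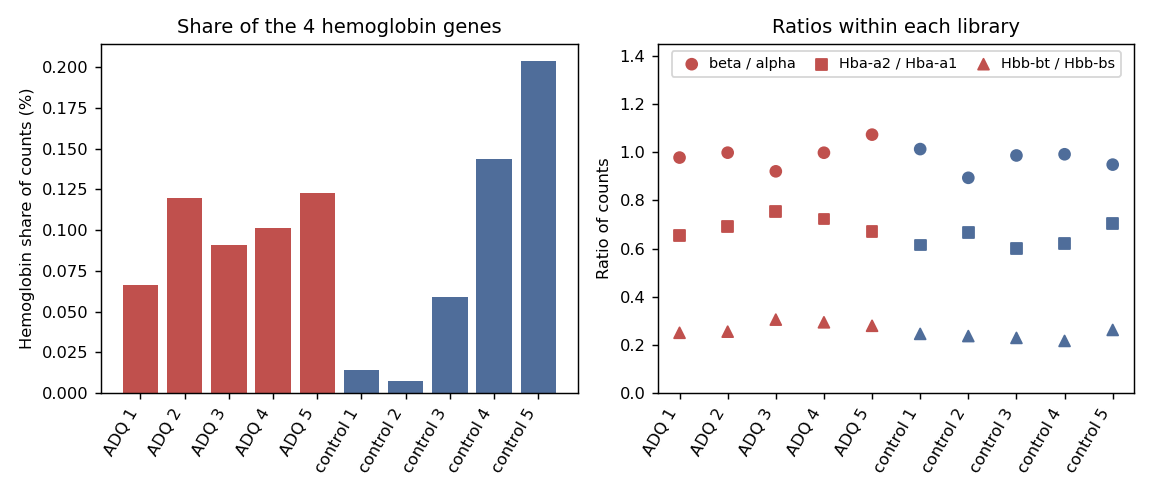
Left, share of all counts taken by the 4 hemoglobin genes in each library, in percent; right, count ratios within each library, with ADQ in red and control in blue. The share ranges from 0.00736% to 0.204% over the control libraries, while the ratio of beta-globin to alpha-globin counts stays between 0.894 and 1.07 in all 10 libraries.

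Within each library the globin chains kept nearly constant proportions while their total varied. The ratio of summed beta-globin to summed alpha-globin counts was 0.978, 0.998, 0.921, 0.998 and 1.07 in ADQ 1 to 5, against 1.01, 0.894, 0.987, 0.992 and 0.949 in control 1 to 5. The groups overlapped, with means of 0.994 ± 0.0546 in ADQ and 0.967 ± 0.0469 in control (SD, n = 5 each). Hba-a2 had 0.698 ± 0.0395 counts per Hba-a1 count in ADQ and 0.642 ± 0.0422 in control (SD, n = 5 each). Hbb-bt had 0.250, 0.255, 0.305, 0.294 and 0.279 counts per Hbb-bs count in ADQ 1 to 5, against 0.246, 0.237, 0.229, 0.216 and 0.262 in control 1 to 5. All controls but control 5 lay below every ADQ library in this ratio, control 5 lay above ADQ 1 and 2, and the split of shared reads between these copies is uncertain. Hemoglobin counts per Alas2 count ran from 53.8 to 87.6 in ADQ and from 36.1 to 77.1 in control, with the lowest values in control 1 and 2. Hemoglobin counts per Slc4a1 count ran from 1279.6 to 2328 in ADQ and from 114 in control 2 to 4093 in control 4.

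The members were then set against each other over the 10 libraries, in log2 CPM. The Pearson correlation with Hbb-bs was 0.999 for Hba-a1, 0.996 for Hba-a2 and 0.995 for Hbb-bt. For each of these 3 genes the permutation p was 1e-05, the smallest that the resamples can give, with 1.667e-05 after Benjamini-Hochberg adjustment over the 5 relations. Spearman's rho was 1, 0.988 and 0.988 (permutation p = 2e-05, 3e-05 and 2e-05). Depending on how they were counted, reads shared between the paired copies may enter the relation of Hbb-bt to Hbb-bs. They do not enter that of the alpha-globin genes to Hbb-bs. Alas2 had r = 0.978 (permutation p = 2e-05, adjusted 2.5e-05) and rho = 0.964 (permutation p = 9e-05). Without control 1 and 2, the libraries farthest from the median, r was 0.996 for Hba-a1, 0.978 for Hba-a2, 0.962 for Hbb-bt and 0.891 for Alas2. Slc4a1 had r = 0.393 (permutation p = 0.243) and rho = 0.273 (permutation p = 0.447), with r = 0.375 without control 1 and 2. For Slc4a1, r was 0.84 without control 2 and -0.076 without control 1, so its value rests on single libraries.

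**Figure D4:**
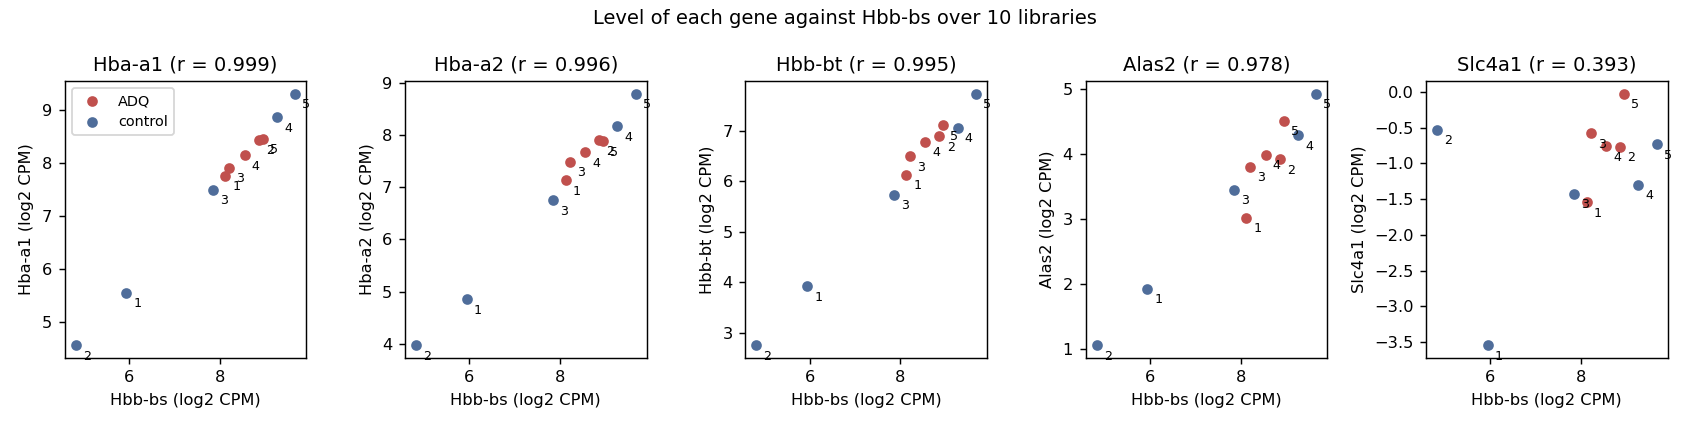
Level of each gene against that of Hbb-bs, both in log2 CPM, with 1 point per library labelled by its replicate number. The alpha-globin genes, Hbb-bt and Alas2 lie along a line over all 10 libraries (r of 0.978 to 0.999), and Slc4a1 does not (r = 0.393), with control 1 and control 2 far from the rest.

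Among 15920 other tested genes that averaged 1 CPM or more, the 10 whose log2 CPM was most like that of Hbb-bs over the 10 libraries had r of 0.833 to 0.922, below the value of Alas2. The highest was Tet3, a methylcytosine dioxygenase, with r = 0.922, and 0.706 without the 2 farthest libraries. Senp7, a SUMO protease, followed with 0.885, and 0.636 without them. The others were Clec4a1, Ncapd2, Fbxo32, Gm49327, Fam151b, B130024G19Rik, Trgc2 and Nup210, and for Fbxo32 r became -0.11 without the 2 farthest libraries. None of the 10 passed the ADQ against control test in edgeR, with adjusted p-values from 0.347 for Nup210 to 0.825 for B130024G19Rik. These genes were picked for their likeness out of many, and their r is a description.

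Other globins were set beside the adult hemoglobin genes. Of the embryonic and theta globin genes, Hba-x and Hbb-bh2 had no count in any library, Hbb-bh1 had 4 counts in all, and none of the 6 genes on that list reached the count filter. Hbb-y, an embryonic beta-type globin, had 14, 15, 7, 0 and 16 counts in ADQ 1 to 5, against 0, 0, 0, 2 and 23 counts in control 1 to 5. Its counts were highest in control 5, the library with the highest Hbb-bs level. Otherwise they did not follow Hbb-bs closely: control 4, next highest for Hbb-bs, had 2, and ADQ 1, the lowest ADQ library for Hbb-bs, had 14. Hbq1b, a theta globin, had 2, 11, 7, 3 and 5 counts in ADQ and 0, 0, 0, 4 and 2 in control. Cygb, a globin of connective tissue cells, was at 424 ± 71.8 CPM in ADQ and 401 ± 76.3 CPM in control (SD, n = 5 each; log2 fold change 0.08, edgeR adjusted p = 0.836). Mb, the oxygen-storing globin of muscle, had a log2 fold change of -0.71 (SE 0.38, edgeR adjusted p = 0.437).

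Of the remaining genes of red cell biology edgeR called none, against 0.827% of all genes tested. At an unadjusted p under 0.05 in either direction, which 13.8% of all genes tested reached, there were 3 of 12 tested genes of heme synthesis, 2 of 6 of the red cell cytosol, 1 of 11 of the membrane and skeleton, 0 of 8 of reticulocyte maturation, 1 of 8 transcription factors and receptors and 1 of 12 of hemoglobin and heme clearance. Of 12 heme synthesis genes, 9 had negative log2 fold changes (median -0.14), and voom with quality weights called 1 of them, where it called 3.52% of all genes tested. Alad, which joins the product of the ALAS enzymes into porphobilinogen, was at 215 ± 39.5 CPM in ADQ and 280.2 ± 39.4 CPM in control (SD, n = 5 each; log2 fold change -0.38, edgeR adjusted p = 0.238). With voom the adjusted p of Alad was 0.0348. Alas1, the housekeeping counterpart of Alas2, was at 133 ± 13.2 CPM in ADQ and 137 ± 3.59 CPM in control (SD, n = 5 each; log2 fold change -0.04, edgeR adjusted p = 0.848). Alas1 was thus higher than Alas2 per kilobase, at 21.6 CPM in ADQ and 22.2 CPM in control, and its SD over the control libraries was small where that of Alas2 was large.

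Of the red cell cytosol list, 6 of 8 genes present were tested, with a median log2 fold change of -0.03, and Ahsp was not analysed here. Bpgm, the enzyme that makes 2,3-bisphosphoglycerate in red cells and is used in other cells too, is named because its values stood out: it was at 67.3 ± 5.21 CPM in ADQ and 50.3 ± 5.60 CPM in control (SD, n = 5 each). Every ADQ library was above every control library for Bpgm, as for 2.09% of all genes tested, and its log2 fold change was 0.42 (SE 0.09, edgeR adjusted p = 0.0544). DESeq2, which called 3.26% of all genes with an adjusted p, gave Bpgm an adjusted p of 0.0105, and voom one of 0.0166, and neither called another gene of this list. How Bpgm relates to the hemoglobin level was not tested. Prdx2, the peroxiredoxin most abundant in red cells, had a log2 fold change of -0.30 (edgeR adjusted p = 0.363).

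Of 17 genes of the red cell membrane and its skeleton, 11 were tested, with a median log2 fold change of 0.02. Rhag, the Rh-associated glycoprotein of the red cell membrane, had only 70 counts over the 10 libraries and Epb42, which links band 3 to the membrane skeleton, 22, and both stayed under the filter. Dmtn, the actin-bundling protein dematin, was at 69.4 ± 5.65 CPM in ADQ and 83.4 ± 6.50 CPM in control (SD, n = 5 each; log2 fold change -0.27, edgeR adjusted p = 0.188). With voom the adjusted p of Dmtn was 0.0455. Every ADQ library was below every control library for Dmtn, by a narrow margin, at most 75.1 CPM against at least 75.4 CPM. Of the reticulocyte maturation genes, 8 of 9 present were tested, 7 of them above 0, with a median of 0.07. Of 10 erythroid transcription factors and receptors, 8 were tested, with a median of -0.14, and Gata1, the master regulator of red cell formation, had 40 counts in all. Klf1, which activates adult beta-globin transcription, was at 0.668 ± 0.253 CPM in ADQ and 0.793 ± 0.307 CPM in control (SD, n = 5 each; log2 fold change -0.24, edgeR adjusted p = 0.791). The genes listed for hemoglobin and heme clearance, 12 in number, had a median of -0.08, with 7 of them below 0. Hp, the haptoglobin that binds free hemoglobin, is named for its values: it was at 9.07, 6.08, 4.46, 2.46 and 14.1 CPM in ADQ 1 to 5, against 17.4, 97.7, 30.7, 12.4 and 4.70 CPM in control 1 to 5. The groups overlapped, and the highest value was that of control 2, the library with the least hemoglobin. Control 2 also had the highest sum of fat cell (adipocyte) markers, at 294 CPM. Control 4, next in that sum at 238 CPM, had less Hp than control 1 and control 3. How Hp relates to the hemoglobin level or to fat cell markers was not tested. The log2 fold change of Hp was -2.17 (SE 0.85, edgeR adjusted p = 0.320), with an adjusted p of 0.110 from DESeq2 and 0.260 from voom. Hmox1, the inducible heme oxygenase, had a log2 fold change of 0.15 (edgeR adjusted p = 0.506) and Cd163, the scavenger receptor for hemoglobin bound to haptoglobin, one of 0.03 (edgeR adjusted p = 0.980).

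**Figure D5:**
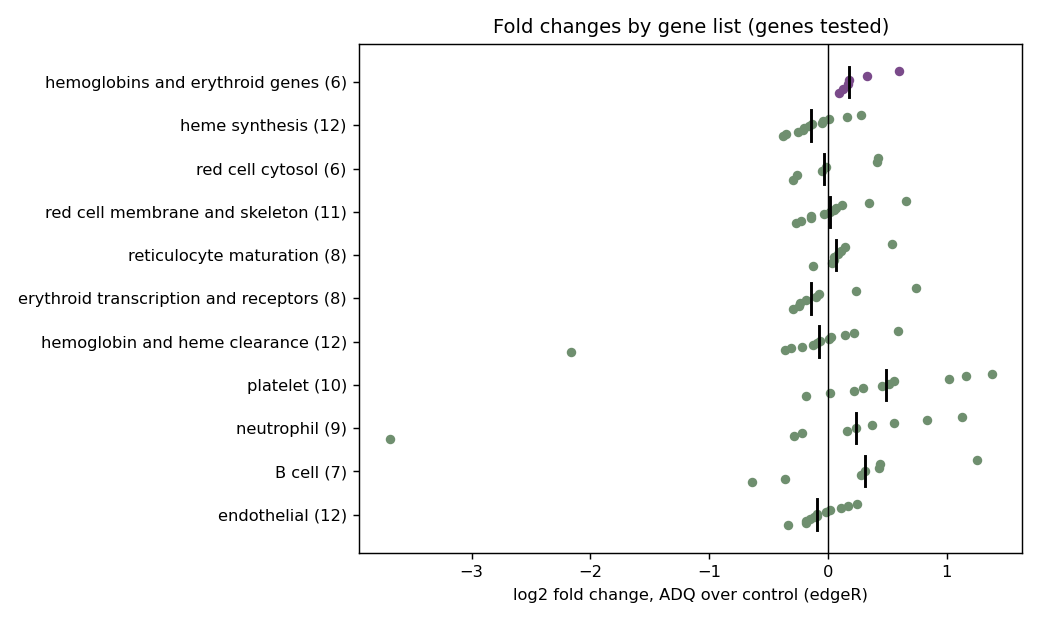
Log2 fold change, ADQ over control, of each gene tested in the lists of red cell and blood genes (points), with the median of each list as a black bar and the number tested in brackets. The 6 hemoglobin and erythroid genes have a median of 0.18, and no gene of any list shown was called by edgeR.

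Markers of other blood cells were set beside the hemoglobin level. Of 12 platelet genes, 10 were tested, 9 of them above 0 with a median log2 fold change of 0.49, and none was called. Their summed level was 29.3 to 44.2 CPM in ADQ and 29.8 to 40.4 CPM in control, and all of them had counts. The mean log2 CPM of the platelet genes had r = 0.762 with Hbb-bs over the 10 libraries (permutation p = 0.00902, adjusted over 16 lists 0.144; rho = 0.600, permutation p = 0.0745), and r = 0.286 without control 1 and 2. The B cell list had a median of 0.31 and r = 0.596 with Hbb-bs (permutation p = 0.0669, adjusted 0.270), and the neutrophil list had a median of 0.23 and r = 0.436 (permutation p = 0.210, adjusted 0.673). Neutrophil log2 fold changes ran from -3.69 for Ltf to 1.13 for Cxcr2. In edgeR, 2 of 10 platelet, 1 of 7 B cell and 4 of 9 neutrophil genes had an unadjusted p under 0.05. Of all genes tested 13.8% did, in either direction. Endothelial genes summed to 1046 to 1477 CPM in ADQ and 1234 to 1525 CPM in control, had a median of -0.09, and had r = -0.102 with Hbb-bs (permutation p = 0.791). The adipocyte list had r = -0.654 (permutation p = 0.0356, adjusted 0.270) and -0.386 without control 1 and 2. Its sums were 120 to 166 CPM in ADQ and 129.5 to 294 CPM in control, the highest being that of control 2, the library with the least hemoglobin. The part of these cell types in the hemoglobin level was not tested. Rod photoreceptor markers had r = -0.025 with Hbb-bs (permutation p = 0.948) and corneal and conjunctival epithelium markers r = -0.0015 (permutation p = 0.997).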

How the data were processed

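Per the labels' protocols, RNA was taken into TRIzol, purified on NucleoSpin columns and amplified by SMARTer. Per the submitters' processing notes, the build was GRCm38 and the tools included bcl2fastq, DRAGEN, edgeR and limma; their roles, the counting settings and strand handling are not stated there. The deposited table holds raw counts per Ensembl gene (55774 entries, of which 287 repeated ones were removed), with 99.5% of identifiers found in GENCODE M21. The authors' deposited table also gives log2 expression values and fold changes, p-values raw and adjusted, and, as deposited, score columns (moderated statistic, log odds and signed fold) that were not used.

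The test on these counts was that of edgeR 4.0.16 under R 4.3.3, beside limma 3.58.1: filterByExpr (minimum count 10, minimum total 15), TMM scaling, a robust quasi-likelihood fit of ADQ against control over 20684 genes, and Benjamini-Hochberg adjustment at 0.05. An SE is the absolute log2 fold change divided by the root of its F statistic. Log2 CPM used a prior count of 2, and correlations 100000 resamples. The members and all lists were chosen with earlier results of these data known. From each other list, the 3 genes with the highest mean CPM and any called gene were to be named, plus the 10 genes most like Hbb-bs; others are named for their values, and some genes are not reported here. Alternatives were other scalings, filters, DESeq2 1.42.0, voom with quality weights, the replicate block and leaving out each library. The fit was tested on simulated data.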

Additional observations from a re-analysis of the deposited data

Results flagged for a closer look

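In 144 groups of 5 libraries, the highest or lowest library was compared with the others of its group, and 12 stood apart by Dixon's criterion at 95%, where chance gives about 1 in 20. None of the 6 hemoglobin and erythroid genes was among them. Hbb-y was at 0.478 CPM in control 5, against at most 0.0431 CPM in the other controls, and Hbq1a was at 0.0954 CPM in ADQ 3, against at most 0.0220 CPM in the other ADQ libraries. Cygb was at 269 CPM in control 5, against 407 to 454 CPM in the other controls. Tfrc, the transferrin receptor, was at 19.6 CPM in ADQ 4, against 23.3 to 24.5 CPM in the other ADQ libraries.

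The rod gene Gnat1 was at 612 CPM in control 1, where the next highest control had 144 CPM. The epithelial keratins Krt15 and Krt4 were at 980.3 and 395 CPM in control 3, where the next highest controls had 234 and 38.5 CPM. The muscle genes Acta1 and Tnnt3 were at 77.0 and 76.8 CPM in ADQ 5, where the other ADQ libraries had at least 384 and 344 CPM. Fam151b was at 5.67 CPM in ADQ 1, against 5.95 to 6.01 CPM in the other ADQ libraries. B130024G19Rik was at 4.48 CPM in ADQ 2, against at most 3.48 CPM in the others, and Trgc2 was at 2.89 CPM in control 5, against at most 0.69 CPM in the other controls.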

How the results depend on the processing

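None of the 6 hemoglobin and erythroid genes passed the test under any of the 19 alternatives (18 for Slc4a1, which the filter of 1 CPM in 5 libraries removes). The 171 genes called over the whole table became 768 with DESeq2 (502 higher and 266 lower in ADQ), 728 with voom and quality weights (552 and 176), and 694 with the replicate block (392 and 302), and without a count filter 32 genes were lower. The deviations of same-numbered libraries from their group means had correlations of -0.113 to 0.163 over 5 pairs. Of 10 libraries, 2 correlated best with their own number. Taken over all genes tested, these correlations cannot decide whether the numbers pair samples, and the labels do not say. Within their groups, RPE marker sums were highest in ADQ 1 and control 1 and lowest in ADQ 3 and control 3. Rod marker sums were highest in ADQ 5 and control 1. With the block Hbb-bs had a log2 fold change of 0.90 and no member passed. Leaving out 1 library gave 78 calls (without control 4) to 357 (without control 5), 69 to 316 higher and 5 to 41 lower.

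Without 1 library, the log2 fold changes ran from -0.21 to 0.68 for Hba-a1, -0.12 to 0.86 for Hba-a2, -0.17 to 0.71 for Hbb-bs, 0.03 to 1.02 for Hbb-bt, -0.095 to 0.74 for Alas2 and 0.33 to 0.86 for Slc4a1. The hemoglobin share, ADQ minus control, was 0.0148 percentage points and ran from -0.00476 to 0.0444, and the beta to alpha ratio difference, 0.0269, ran from 0.00698 to 0.0451. The correlation of Slc4a1 with Hbb-bs ran from -0.076 to 0.84.

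Called genes in the lists numbered 0 with edgeR. Heme synthesis had 1 with voom and 1 with the block. Red cell cytosol had 1 with upper quartile scaling, library size alone, no filter, 1 CPM in 5 libraries, DESeq2 and voom, 2 with the block, and 0 to 1 without a library. The membrane list had 1 with voom, neutrophils 1 with DESeq2, RPE 1 with the block, epithelial keratins 6 with DESeq2, 2 with the block and 0 to 3 without a library, and adipocytes 2 with DESeq2 and 0 to 6 without a library.

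Signs turned for genes near 0. With library size alone, where the median of all genes was 0.10, Alas1 was at 0.037, Cat at 0.066, Tfrc at 0.013 and Emcn at 0.066. With voom Cygb was at -0.0051 and Myh4 at -0.095, and with the block Myh4 was at -0.13. Without 1 library, Cygb ran from -0.036 to 0.13, Alas1 from -0.093 to 0.0014, Cat from -0.043 to 0.021, Aqp1 from -0.047 to 0.19, Cd24a from -0.074 to 0.19, Lrp1 from -0.041 to 0.052, Itga2b from -0.042 to 0.072, Emcn from -0.086 to 0.061, Rom1 from -0.058 to 0.26, Myh4 from -0.17 to 0.31, Lpl from -0.052 to 0.15 and Ncapd2 from -0.0013 to 0.21. The cause of these changes was not tested. Depth limits Slc4a1, with 2 to 61 counts per library, and the embryonic globins, while for the adult globins the spread between libraries sets the error.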
